A study of Mus musculus with 16 samples.

Results

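Ckb and Ckmt1 encode creatine kinases, and their RNA was followed across 4 groups of 4 libraries of LKR10 cells, a mouse lung adenocarcinoma line. Both were taken by gene symbol from a table of 12321 genes. They were chosen by their RNA levels in these same libraries, so every value of theirs is given as a description with its spread and without a p-value. Ckb encodes the cytosolic, brain-type enzyme and Ckmt1 the ubiquitous mitochondrial enzyme. The other members of the family, Ckm (the muscle-type cytosolic enzyme) and Ckmt2 (the mitochondrial enzyme of striated muscle), were not analysed here.

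All cells were transduced with a pLKO lentiviral vector and selected with puromycin at 4 µg/ml for 48 h before a further 96 h of growth. The groups were 3D shAnkrd35, 3D shGFP, 2D shAnkrd35 and 2D shGFP, where shAnkrd35 is a short hairpin RNA that targets Ankrd35, which encodes an ankyrin repeat protein, and shGFP is the control hairpin. Cells in 3D grew in 0.5% methylcellulose, a viscous medium in which cells do not spread on a surface, and cells in 2D grew as an attached monolayer. Whether the 4 replicates of a group were separate cultures is not said, so SDs and p-values measure the spread among libraries alone, and that spread may be technical.

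Creatine kinases move a phosphate group between ATP and creatine. The mitochondrial enzyme lies in the space between the mitochondrial membranes, where it uses ATP that leaves the matrix to make phosphocreatine. The cytosolic enzyme uses phosphocreatine to rebuild ATP near proteins that consume it, such as ion pumps. Ckb and Ckmt1 are the pair found outside muscle, in brain, gut and kidney and in many carcinomas.

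The targeted gene Ankrd35 was near the lower end of detection. It had 12, 11, 9 and 9 reads in 3D shAnkrd35, against 14, 17, 16 and 16 reads in 3D shGFP. It had 2, 6, 7 and 1 reads in 2D shAnkrd35, against 2, 3, 6 and 7 reads in 2D shGFP. In CPM (counts per 1 M reads of the effective library size) the groups overlapped in both growth types, so the hairpin names below are those of the labels. Libraries held 13.82 to 28.72 M reads. Of the markers of epithelium, 6 of 7 were listed, with a summed level of 5260 to 8560 CPM, while none of the 7 alveolar markers, Nkx2-1 and Sftpc among them, was in the analysed set. Replicate 1 of 2D shAnkrd35 was below its group in Gamt, as given with that gene, and without this library the 2D hairpin differences were 0.37 for Ckb and 2.15 for Ckmt1 on the log2 scale. The summed level of the 5 listed fibroblast markers ranged from 12.6 to 48.2 CPM between the libraries of 3D shAnkrd35. With each library left out in turn, the 3D hairpin differences were -0.99 to -0.96 for Ckb and 1.94 to 2.07 for Ckmt1.

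Ckb lies on chromosome 12 (GRCm38, 111669361 to 111672338, minus strand) and its longest coding transcript has 8 exons and 1472 bases. Ckmt1 lies on chromosome 2 (121357714 to 121363737, plus strand) and its longest coding transcript has 9 exons and 1620 bases. The last 10 bases of Ckmt1 (121363728 to 121363737) overlap Strc, a gene on the other strand, which was not analysed here. The use of strand in counting is not given in the sources used here, so reads from those 10 bases cannot be assigned to either gene.

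The 250 bases before the start of each gene are shown as a description of sequence, and a link between them and the RNA levels was not tested. They come from RefSeq on GRCm38.p6 and run 5′ to 3′ on the strand of the gene. Capitals mark TATAAA, the core promoter element bound by TATA-binding protein, and CCAAT, the box bound by NF-Y, on either strand (as ATTGG where CCAAT is on the other strand). RefSeq gives Ckmt1 more than 1 start, and the window shown belongs to the start of its longest coding transcript. Which of these starts was used in the cells was not measured.
Ckb, chr12:111672339-111672588, minus strand: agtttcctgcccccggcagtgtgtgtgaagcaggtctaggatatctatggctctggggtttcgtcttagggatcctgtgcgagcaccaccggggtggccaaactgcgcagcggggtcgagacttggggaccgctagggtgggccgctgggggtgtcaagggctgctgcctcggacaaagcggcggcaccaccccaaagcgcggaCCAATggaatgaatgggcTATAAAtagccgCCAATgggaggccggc
Ckmt1, chr2:121358360-121358609, plus strand: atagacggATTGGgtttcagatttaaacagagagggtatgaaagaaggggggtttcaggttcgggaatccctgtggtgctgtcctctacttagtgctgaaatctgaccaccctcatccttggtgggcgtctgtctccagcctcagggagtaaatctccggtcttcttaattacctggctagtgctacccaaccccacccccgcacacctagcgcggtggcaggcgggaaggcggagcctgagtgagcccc

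The Ckb window was 62.8% GC and held TATAAA at 28 to 23 bases before the start, with CCAAT on either side of it, at 46 to 42 and at 16 to 12 bases. The Ckmt1 window was 56.0% GC and held CCAAT, on the other strand, only at its far end, 242 to 238 bases before the start, and no TATAAA. The window of the other Ckmt1 start in the RefSeq table, which is not shown, held TATAAA on the other strand (31 to 26 bases before that start) and AGGTCA, the core motif of many nuclear receptors, also on the other strand (179 to 174). GGGCGG, the letters bound by Sp1, and CACGTG, the E-box, were searched on both strands and found in none of these windows. Among 32851 promoters of the same length, 12.4% held TATAAA, 33.8% CCAAT, 14.0% AGGTCA, 32.7% GGGCGG and 6.02% CACGTG, and these 5 motifs do not contain each other.

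Ckb was the more abundant kinase in every library. In 3D shAnkrd35 the 4 libraries had 30.8, 29.5, 30.7 and 31.2 CPM of Ckb, and in 3D shGFP they had 60.9, 61.1, 59.8 and 59.4 CPM. In 2D shAnkrd35 they had 74.0, 88.8, 79.5 and 75.6 CPM, and in 2D shGFP 66.9, 56.8, 63.9 and 64.1 CPM. The 4 libraries of 3D shAnkrd35 were thus the lowest of all 16 and the 4 of 2D shAnkrd35 the highest, while the shGFP libraries of both growth types overlapped in between.

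In 3D, Ckb averaged 30.5 ± 0.721 CPM with shAnkrd35 and 60.3 ± 0.824 CPM with shGFP (SD, n = 4 each), a ratio of 0.506 and a log2 difference of -0.98 (SE 0.06). The groups did not overlap, as was the case for 19.4% of the 12320 genes tested in the lower direction. In 2D the order was the other way round, with 79.5 ± 6.63 CPM with shAnkrd35 and 62.9 ± 4.34 CPM with shGFP, a ratio of 1.26 and a log2 difference of 0.34 (SE 0.06). Here too the groups did not overlap, which held for 22.3% of genes in the higher direction. The hairpin difference of Ckb in 3D minus that in 2D was -1.32 (SE 0.08), which placed it at rank 54 from the lowest of 12320 genes. Groups that parted upward in 2D and downward in 3D were found for 190 genes, 1.54% of those tested.

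The 2D value of Ckb depended on whether the joint trend on GC content and transcript length was removed. The Ckb transcript is 60.0% GC, more than in 95.3% of the genes, and the slope of expression on GC content differed between libraries. It was -0.276 to -0.126 log2 per 10 percentage points in 3D shAnkrd35 against -0.302 to -0.237 in 3D shGFP, and 0.264 to 0.546 in 2D shAnkrd35 against -0.105 to 0.297 in 2D shGFP. With each library's trend on GC content and length removed, the Ckb hairpin difference was -1.04 in 3D and 0.06 in 2D, and the difference of these effects was -1.1. Whether recovery that depends on GC content or length, or the hairpin, set the higher Ckb level in 2D cannot be told apart.

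**Figure D1:**
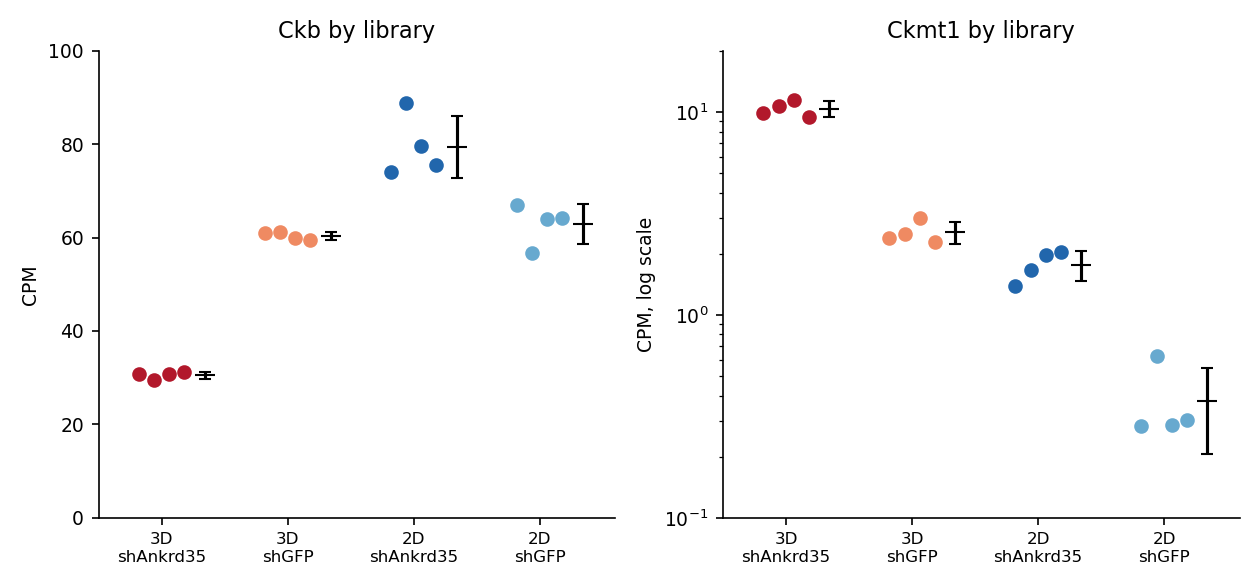
CPM of Ckb (left, linear axis from 0) and of Ckmt1 (right, log axis) in each of 16 libraries (coloured points, replicates 1 to 4 from left to right) with the mean and SD of each group in black. For Ckb the 3D shAnkrd35 libraries lie at 29.5 to 31.2 CPM, below all others. For Ckmt1 the groups descend from 3D shAnkrd35 to 2D shGFP without overlap.

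Growth type moved with Ckb in the shAnkrd35 cells. With shAnkrd35, Ckb averaged 30.5 CPM in 3D and 79.5 CPM in 2D, a ratio of 0.384 and a log2 difference of -1.37 (SE 0.06), without overlap (29.3% of genes parted in the lower direction). The difference was -0.99 with the GC and length trend removed. With shGFP it averaged 60.3 CPM in 3D and 62.9 CPM in 2D, a log2 difference of -0.06 (SE 0.06) that turned to 0.11 with the trend removed. The 3D shGFP libraries (59.4 to 61.1 CPM) lay within the range of the 2D shGFP libraries (56.8 to 66.9 CPM). In order of level, 2D shAnkrd35 came first, 2D shGFP and 3D shGFP followed without a gap between them, and 3D shAnkrd35 was last.

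The coefficient of variation of Ckb over the 4 libraries was 2.36% in 3D shAnkrd35, 1.37% in 3D shGFP, 8.35% in 2D shAnkrd35 and 6.89% in 2D shGFP. The difference in spread between growth types was not tested.

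Ckmt1 was a low-abundance gene whose levels spanned a wider range. The 4 libraries had 9.86, 10.7, 11.5 and 9.41 CPM in 3D shAnkrd35 (164 to 285 reads) and 2.4, 2.49, 3.01 and 2.29 CPM in 3D shGFP (59 to 78 reads). They had 1.38, 1.66, 1.98 and 2.03 CPM in 2D shAnkrd35 (30 to 43 reads), and 0.282, 0.628, 0.286 and 0.304 CPM in 2D shGFP (6 to 12 reads). No group overlapped another, and in order of level they were 3D shAnkrd35, 3D shGFP, 2D shAnkrd35 and 2D shGFP. Ckmt1 reached 1 CPM in 12 libraries, all but those of 2D shGFP.

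In 3D, Ckmt1 averaged 10.4 ± 0.932 CPM with shAnkrd35 and 2.55 ± 0.319 CPM with shGFP (SD, n = 4 each), a ratio of 4.07 and a log2 difference of 1.99 (SE 0.20). In 2D it averaged 1.76 ± 0.303 CPM with shAnkrd35 and 0.375 ± 0.169 CPM with shGFP, a ratio of 4.71 and a log2 difference of 2.04 (SE 0.20). The groups parted in both growth types, upward, as did those of 18.8% of genes in 3D and 22.3% in 2D, and 8.81% of genes parted upward in both. Among 12320 genes Ckmt1 ranked 14 from the highest in 3D and 16 from the highest in 2D. Replicate 2 of 2D shGFP, with 12 reads, was the highest of its group, and without it the 2D difference was 2.27.

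Pooled over the 4 libraries, Ckmt1 had 872 reads in 3D shAnkrd35 against 269 in 3D shGFP, or 10.3 CPM (exact Poisson 95% interval 9.63 to 11.0) and 2.54 CPM (2.25 to 2.86). It had 149 reads in 2D shAnkrd35 against 31 in 2D shGFP, or 1.76 CPM (1.49 to 2.07) and 0.366 CPM (0.249 to 0.52). These intervals cover counting error only, and they too do not overlap. The sources used here name no molecular identifiers, so PCR copies of a molecule may be among the reads.

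On the log2 scale the hairpin difference of Ckmt1 in 3D minus that in 2D was -0.05 (SE 0.28), a near equal ratio in both growth types. In CPM the gain was 7.83 in 3D and 1.39 in 2D. The value depended on the number added before the log: with log2(CPM + 1) the hairpin differences were 1.68 in 3D and 1.01 in 2D, and their difference was 0.67. The deposited values include a smaller addition, equal on average to 2 reads, which pulls the lowest levels, those of 2D shGFP, upward.

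Growth type moved with Ckmt1 under both hairpins, unlike Ckb. With shAnkrd35 the mean was 10.4 CPM in 3D and 1.76 CPM in 2D, a ratio of 5.88 and a log2 difference of 2.51 (SE 0.20). With shGFP it was 2.55 CPM in 3D and 0.375 CPM in 2D, a ratio of 6.8 and a log2 difference of 2.56 (SE 0.20). The groups parted upward both times, as did those of 29.9% of genes with shAnkrd35 and 33.3% with shGFP, and Ckmt1 ranked 125 from the highest with shAnkrd35 and 85 with shGFP. With log2(CPM + 1) the differences were 2.04 with shAnkrd35 and 1.37 with shGFP. The Ckmt1 transcript is 54.9% GC, more than in 75.0% of genes. With the trend on GC content and length removed, its growth differences were 2.84 with shAnkrd35 and 2.65 with shGFP, and its hairpin differences were 1.96 in 3D and 1.78 in 2D.

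**Figure D2:**
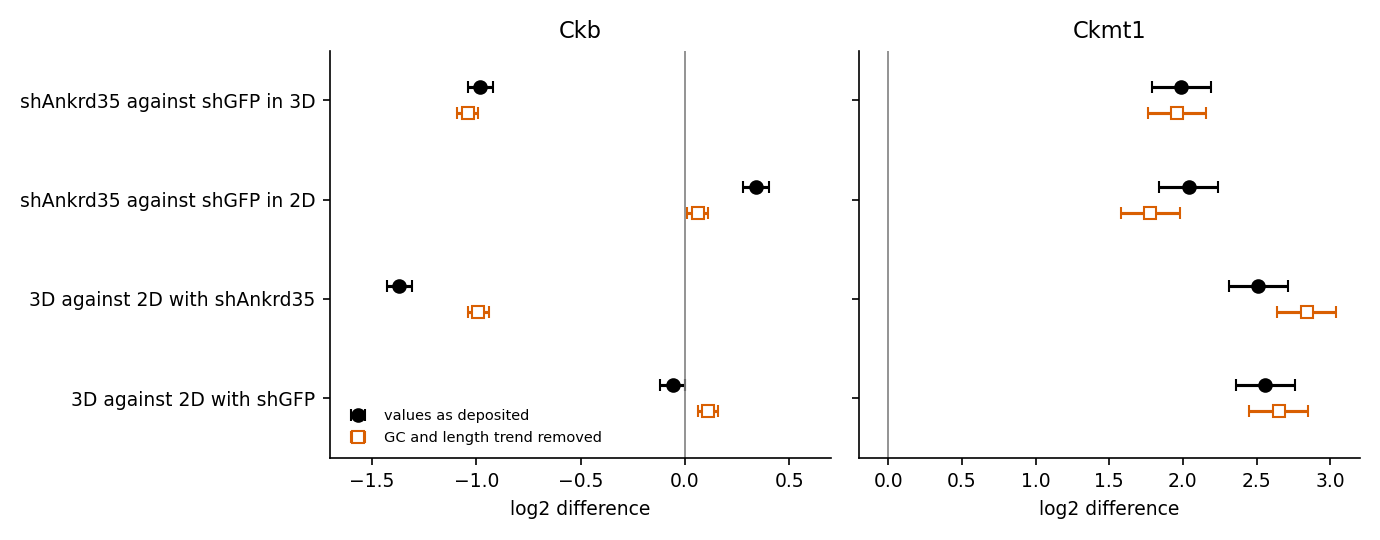
Log2 differences (points, with bars of 1 SE) of Ckb (left) and Ckmt1 (right) in 4 comparisons, from the values as deposited (filled circles) and with the trend of each library on GC content and length removed (open squares). Ckb is near 0.06 in 2D once the trend is removed and lies at -0.98 and -1.04 in 3D, and Ckmt1 lies between 1.78 and 2.84 throughout.

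The kinases were set side by side after division by the length of the longest coding transcript, in CPM per kb. Per kb, Ckb averaged 20.7 in 3D shAnkrd35, 41.0 in 3D shGFP, 54.0 in 2D shAnkrd35 against 42.7 in 2D shGFP. Ckmt1 averaged 6.4, 1.57, 1.09 and 0.231 in the same order of groups. In the sum of both, Ckmt1 made up 23.6% ± 1.83 in 3D shAnkrd35, 3.7% ± 0.457 in 3D shGFP, 1.98% ± 0.367 in 2D shAnkrd35 against 0.552% ± 0.296 in 2D shGFP (SD, n = 4 each).

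The balance of the pair thus ranged from 3.26 Ckb per Ckmt1 in 3D shAnkrd35 against 26.4 in 3D shGFP to 50.7 in 2D shAnkrd35 against 210.0 in 2D shGFP, each per kb. The sum of both kinases followed Ckb, with 27.1 CPM per kb in 3D shAnkrd35 against 42.5 in 3D shGFP, and 55.1 in 2D shAnkrd35 against 43.0 in 2D shGFP. In 3D shAnkrd35 the higher Ckmt1 level therefore did not make up for the lower Ckb level in the summed RNA. In RNA from whole cultures, fewer cells with a transcript and less of it per cell cannot be told apart, and a library does not show whether the same cells held both kinases.

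**Figure D3:**
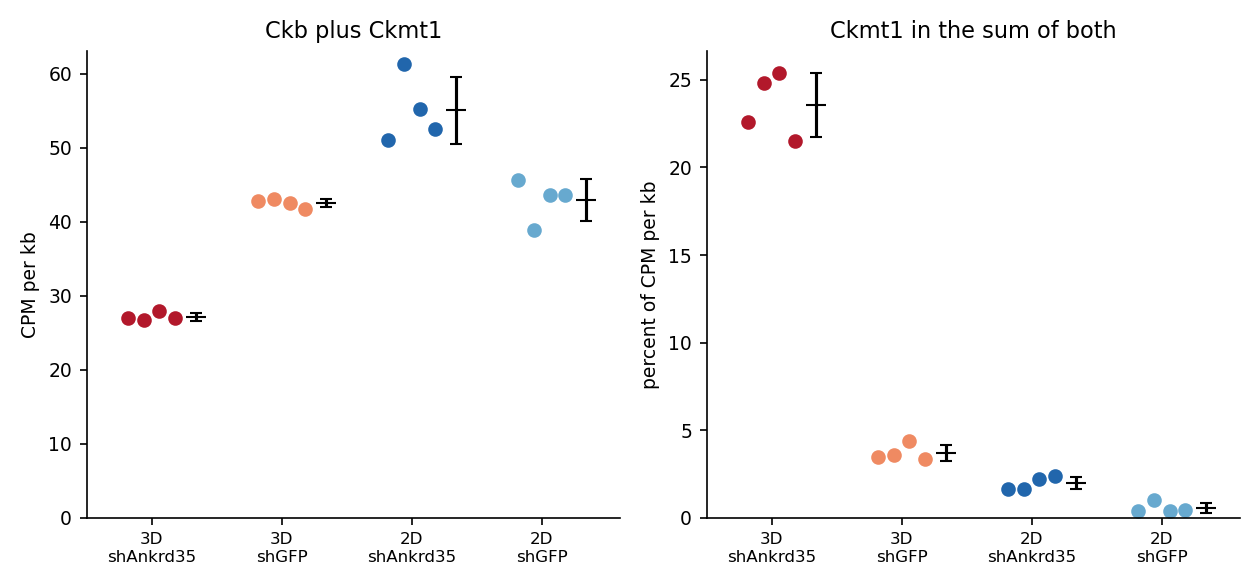
Sum of Ckb and Ckmt1 in CPM per kb (left) and the percentage of that sum from Ckmt1 (right) in each library (points), with the mean and SD of each group in black. The 3D shAnkrd35 libraries have the lowest sums (26.7 to 27.9) and the highest Ckmt1 percentages (21.5 to 25.4).

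The levels of other cell types' markers were compared with those of the kinases. Ckb is abundant in neurons and glia, and 5 of 10 markers of those cells were listed, with a summed level of 115 to 133 CPM in 3D shAnkrd35, 183 to 209 in 3D shGFP, 122 to 150 in 2D shAnkrd35 and 148 to 155 in 2D shGFP. The neuronal genes Snap25, Syp and Rbfox3 and the astrocyte genes Gfap and Aqp4 were not among the genes analysed here. In 3D this sum was thus lower with shAnkrd35, as Ckb was, and in 2D the groups overlapped. The summed epithelial markers were higher with shAnkrd35, at 6600 to 7180 CPM in 3D shAnkrd35 and 5990 to 6180 in 3D shGFP, and at 7030 to 8560 in 2D shAnkrd35 and 5260 to 5760 in 2D shGFP. Of 11 muscle markers only Des and Tnnt2 were listed, of 6 macrophage markers only Cd68, and of 7 fibroblast markers 5. The part of cell type composition in the kinase levels was not tested.

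Creatine reaches the kinases by synthesis from arginine and glycine or by uptake. Of 4 genes of these steps, Gamt, which methylates guanidinoacetate to creatine, and Slc6a8, the creatine transporter, were measured. Gatm, which makes guanidinoacetate, and Slc16a12, a creatine exporter, were not analysed here. For these and the genes that follow, p-values are from limma with Benjamini-Hochberg adjustment over the 12320 genes tested, and rose and fell mean an adjusted p under 0.05.

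Gamt had 33.3, 31.9, 37.6 and 26.3 CPM in 3D shAnkrd35 and 28.9, 28.2, 24.7 and 26.4 CPM in 3D shGFP. It had 34.1, 48.1, 49.9 and 49.1 CPM in 2D shAnkrd35 and 27.7, 23.7, 24.1 and 25.7 CPM in 2D shGFP. The 2D groups were apart and the 3D groups overlapped. Gamt rose with shAnkrd35 in 2D (log2 difference 0.82, SE 0.12, adjusted p = 2.45e-05), while in 3D the difference was 0.24 (adjusted p = 0.133), and the difference of effects was -0.58 (adjusted p = 0.0144). With the GC and length trend removed these were 0.49 (adjusted p = 4.19e-06) in 2D and -0.31 (adjusted p = 0.0157) for the difference of effects. The 3D difference of Gamt passed the test under 4 alternative settings of the processing.

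Between growth types Gamt fell in 3D with shAnkrd35 (-0.48, adjusted p = 0.00159), and this was -0.07 (adjusted p = 0.389) with the GC and length trend removed. With shGFP the difference was 0.1 (adjusted p = 0.485). In the values as deposited, Gamt thus shared with Ckb its highest group, 2D shAnkrd35, but not its lowest. The Gamt transcript is 59.7% GC and that of Ckb 60.0%. The 2D hairpin difference of Ckb was 0.06 with the GC and length trend removed.

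Slc6a8 was nearly level between hairpins. It averaged 93.8 ± 3.23 CPM in 3D shAnkrd35 against 91.7 ± 3.34 in 3D shGFP, and 109.0 ± 2.99 in 2D shAnkrd35 against 115.0 ± 4.87 in 2D shGFP (SD, n = 4 each). The hairpin difference was 0.03 (SE 0.04, adjusted p = 0.614) in 3D and -0.08 (SE 0.04, adjusted p = 0.13) in 2D. It fell in 3D with shAnkrd35 (-0.22, adjusted p = 0.000243) and with shGFP (-0.33, adjusted p = 3.64e-06), and these were 0.03 (adjusted p = 0.572) and -0.11 (adjusted p = 0.0237) with the GC and length trend removed.

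The 5 further lists covered the supply of arginine and methyl groups, the export of ATP from mitochondria, other phosphotransfer kinases, ion pumps and AMP-activated kinase, with 53 of 67 genes measured. Between hairpins 11 rose and 16 fell in 3D, and 19 rose and 16 fell in 2D, where 15.0% of all genes tested rose and 14.6% fell in 3D, and 29.0% rose and 28.8% fell in 2D. The median log2 difference of the 53 genes was -0.05 in 3D and 0.07 in 2D, against 0.0 and 0.01 for all genes tested. In 3D against 2D, 15 rose and 27 fell with shAnkrd35 (of all genes 34.4% rose and 36.0% fell), and 16 rose and 19 fell with shGFP (of all genes 35.2% rose and 32.1% fell), with medians of -0.2 with shAnkrd35 and -0.07 with shGFP, against -0.02 and 0.03 for all genes. The difference of the hairpin effects was positive for 9 and negative for 15 (17.1% and 18.6% of all genes). Read against all genes, the lists held more falling members than the background between hairpins in 3D (30.2% against 14.6%). The same held in 3D against 2D with shAnkrd35 (50.9% against 36.0%), where rising members were fewer than the background (28.3% against 34.4%). Between hairpins, rising members were also above the background, in 3D (20.8% against 15.0%) and in 2D (35.8% against 29.0%). Negative differences of effects were above it too (28.3% against 18.6%). These shares carry no test.

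**Figure D4:**
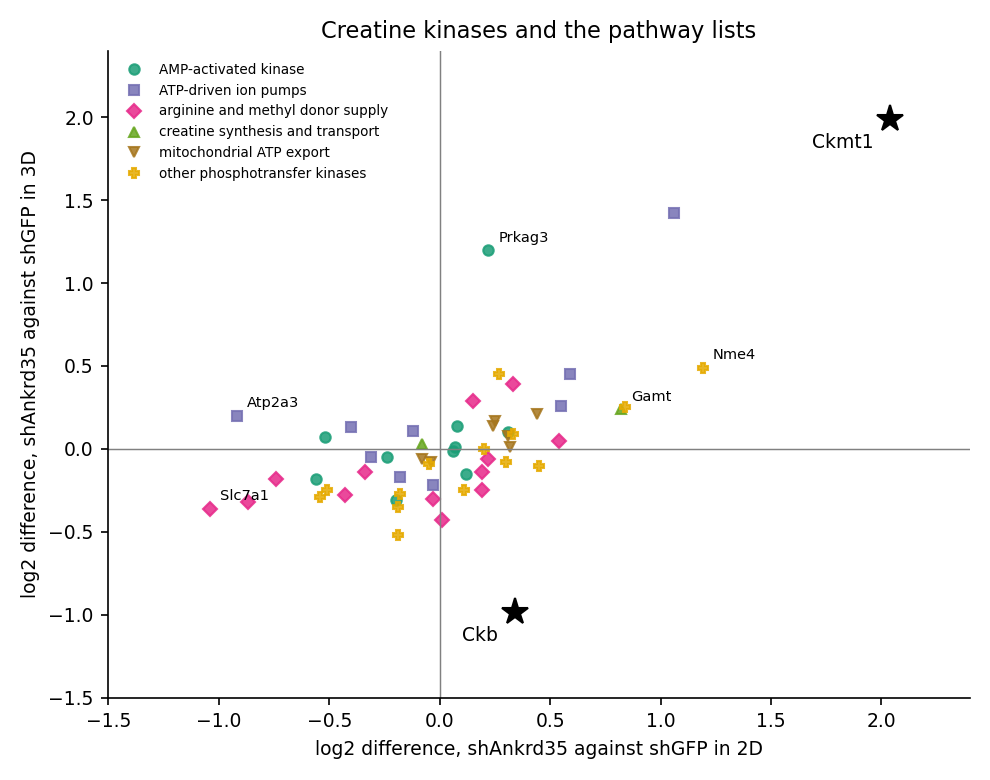
Log2 difference between shAnkrd35 and shGFP in 2D (horizontal) and in 3D (vertical) for each measured gene of the lists, by list, with Ckb and Ckmt1 as black stars. Ckmt1 lies at 2.04 and 1.99, beyond every list member on both axes, and Ckb at 0.34 and -0.98, below every list member on the vertical axis.

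In the supply of arginine and methyl groups, 13 of 16 genes were measured. With shAnkrd35 against shGFP, 2 rose (15.4%, against 15.0% of all genes) and 8 fell (61.5% against 14.6%) in 3D. In 2D, 6 rose (46.2% against 29.0%) and 4 fell (30.8% against 28.8%). Slc7a1, the main carrier of arginine into cells, fell in both, by 0.36 in 3D (adjusted p = 0.00045) and by 1.04 in 2D (adjusted p = 2e-09). Slc3a2, the heavy chain of several amino acid exchangers, fell by 0.18 in 3D (adjusted p = 0.0294) and by 0.74 in 2D (adjusted p = 3.13e-08). The 3D call of Slc3a2 was lost with libraries centred on the median gene (adjusted p = 0.111) and without replicate 1, 2, 3 or 4 of 3D shGFP or replicate 1 or 4 of 3D shAnkrd35 (adjusted p from 0.0508 to 0.0937). Both differences of effects passed the test, at 0.67 for Slc7a1 (adjusted p = 5.98e-05) and 0.56 for Slc3a2 (adjusted p = 0.000125).

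Ahcy, which breaks down the S-adenosylhomocysteine left by methylation, rose by 0.39 in 3D (adjusted p = 0.00042) and by 0.33 in 2D (adjusted p = 0.000766), where it was 0.18 (adjusted p = 0.00725) with the GC and length trend removed. Oat, which turns ornithine into a precursor of glutamate and proline, fell in 3D (-0.25, adjusted p = 0.000872) and rose in 2D (0.19, adjusted p = 0.00267), with a difference of effects of -0.44 (adjusted p = 0.000175). Its signs were thus those of Ckb in both growth types, in the values as deposited. The 2D value of Ckb was 0.06 with the GC and length trend removed. Between growth types Slc7a1 fell in 3D by 1.01 with shAnkrd35 (adjusted p = 9.95e-10) and by 1.68 with shGFP (adjusted p = 7.1e-13). Slc7a2 of the same list rose, by 1.06 with shAnkrd35 (adjusted p = 1.03e-07) and by 0.51 with shGFP (adjusted p = 0.0003). Ass1, which makes argininosuccinate on the way to arginine, fell by 1.28 with shAnkrd35 (adjusted p = 1.45e-09). Of the whole list, 5 rose and 7 fell with shAnkrd35 (38.5% and 53.8%, against 34.4% and 36.0% of all genes). With shGFP, 5 rose and 5 fell (38.5% each, against 35.2% and 32.1%).

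Of the genes for the export of ATP from mitochondria, the step before Ckmt1, 7 of 8 were measured. With shAnkrd35 against shGFP, 2 rose (28.6%, against 15.0% of all genes) and 0 fell (0% against 14.6%) in 3D. In 2D, 5 rose (71.4% against 29.0%) and 0 fell (0% against 28.8%). Slc25a5, an exchanger of ADP and ATP across the inner membrane, rose by 0.17 in 3D (adjusted p = 0.0129) and by 0.25 in 2D (adjusted p = 0.000308). Vdac1, a pore of the outer membrane, rose by 0.14 in 3D (adjusted p = 0.0211) and by 0.24 in 2D (adjusted p = 0.000251), and Vdac2, a further pore, rose in 2D by 0.31 (adjusted p = 1.02e-05).

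With the GC and length trend removed, the 2D values were 0.06 for Slc25a5 (adjusted p = 0.246), 0.06 for Vdac1 (adjusted p = 0.104) and 0.17 for Vdac2 (adjusted p = 0.000178). The 3D call of Vdac1 was lost without replicate 2 (adjusted p = 0.052) or replicate 3 (adjusted p = 0.074) of 3D shGFP and without replicate 1 of 3D shAnkrd35 (adjusted p = 0.0599). Between growth types, 1 rose (14.3%, against 34.4% of all genes) and 5 fell (71.4% against 36.0%) in 3D with shAnkrd35. With shGFP, 2 rose (28.6% against 35.2%) and 3 fell (42.9% against 32.1%). Vdac3, the remaining pore, fell by 0.37 with shAnkrd35 (adjusted p = 7.17e-05) and by 0.33 with shGFP (adjusted p = 0.000265), and the value with shGFP was -0.5 with the trend removed. None of these genes approached the size of the Ckmt1 differences.

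Of other kinases that pass phosphate groups between nucleotides, 14 of 20 were measured. With shAnkrd35 against shGFP, 2 rose (14.3%, against 15.0% of all genes) and 5 fell (35.7% against 14.6%) in 3D. In 2D, 4 rose (28.6% against 29.0%) and 4 fell (28.6% against 28.8%), near the shares of all genes. Nme4, the nucleoside diphosphate kinase of mitochondria, rose by 0.49 in 3D (adjusted p = 0.000202) and by 1.19 in 2D (adjusted p = 5.57e-09), with a difference of effects of -0.7 (adjusted p = 0.000301), which was -0.41 (adjusted p = 0.00163) with the GC and length trend removed. Ak3, an adenylate kinase of the mitochondrial matrix, fell by 0.29 in 3D (adjusted p = 0.000953) and by 0.54 in 2D (adjusted p = 8.15e-07).

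Ak1, the cytosolic adenylate kinase, fell in 3D by 0.9 with shAnkrd35 (adjusted p = 1.36e-08) and by 0.54 with shGFP (adjusted p = 4.6e-06). Ak5, a cytosolic adenylate kinase known from brain, averaged 1.24 CPM in 3D shAnkrd35 and 6.28 CPM in 2D shAnkrd35, and 1.83 CPM in 3D shGFP and 7.15 CPM in 2D shGFP. It fell in 3D by 2.26 with shAnkrd35 (adjusted p = 1.26e-10) and by 1.93 with shGFP (adjusted p = 5.86e-10). Nme4 fell in 3D by 1.08 with shAnkrd35 (adjusted p = 7.15e-09), or by 0.69 (adjusted p = 1.15e-08) with the trend removed. Of all 14, 1 rose (7.14%, against 34.4% of all genes) and 7 fell (50% against 36.0%) with shAnkrd35. With shGFP, 2 rose (14.3% against 35.2%) and 4 fell (28.6% against 32.1%).

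Of the ion pumps, consumers of ATP near which cytosolic creatine kinase is known to act, 9 of 13 were measured. With shAnkrd35 against shGFP, 3 rose (33.3%, against 15.0% of all genes) and 1 fell (11.1% against 14.6%) in 3D. In 2D, 3 rose (33.3% against 29.0%) and 5 fell (55.6% against 28.8%). Atp1b1, an accessory subunit of the sodium-potassium pump, rose by 0.26 in 3D (adjusted p = 0.00181) and by 0.55 in 2D (adjusted p = 4.36e-07).

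Atp2a3, a calcium pump of the endoplasmic reticulum, fell by 0.92 in 2D (adjusted p = 9.6e-07) and differed by 0.2 in 3D (adjusted p = 0.135), with a difference of effects of 1.12 (adjusted p = 2.26e-05). Between growth types, 5 pump genes rose (55.6%, against 34.4% of all genes) and 3 fell (33.3% against 36.0%) in 3D with shAnkrd35. With shGFP, 4 rose (44.4% against 35.2%) and 3 fell (33.3% against 32.1%).

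AMP-activated kinase senses a rise in AMP when ATP runs low, and all 10 genes of its list were measured. With shAnkrd35 against shGFP, 2 rose (20%, against 15.0% of all genes) and 2 fell (20% against 14.6%) in 3D. In 2D, 1 rose (10% against 29.0%) and 3 fell (30% against 28.8%). Prkag3, a regulatory subunit, averaged 1.93 CPM in 3D shAnkrd35 against 0.784 CPM in 3D shGFP and rose by 1.2 (adjusted p = 0.000117), or by 0.71 (adjusted p = 0.000171) as log2(CPM + 1). Prkab2, a scaffold subunit, fell by 0.31 in 3D (adjusted p = 0.0109). Cab39, a partner of the upstream kinase Stk11, fell by 0.56 in 2D (adjusted p = 0.000436).

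Stk11 itself fell in 3D by 0.3 with shAnkrd35 (adjusted p = 2.21e-05) and by 0.36 with shGFP (adjusted p = 2.89e-06). With the GC and length trend removed these were 0.03 (adjusted p = 0.534) and -0.15 (adjusted p = 0.0038). In all, 3 genes of the list rose (30%, against 34.4% of all genes) and 5 fell (50% against 36.0%) in 3D with shAnkrd35. With shGFP, 3 rose (30% against 35.2%) and 4 fell (40% against 32.1%).

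The genes beside each kinase on its chromosome were measured too. At lower coordinates than Ckb lie Mark3, a kinase of microtubule-associated proteins, 13140 bases away, and Eif5, a translation initiation factor. At higher coordinates lie Trmt61a, a tRNA methyltransferase, 5767 bases away, and Bag5, a co-chaperone. In 3D, where Ckb was lower with shAnkrd35 by 0.98, the hairpin difference was -0.16 for Mark3 (adjusted p = 0.0166, lost at 0.0537 when libraries were centred on the median gene), -0.13 for Eif5 (adjusted p = 0.374), -0.02 for Trmt61a (adjusted p = 0.89) and -0.02 for Bag5 (adjusted p = 0.905).

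In 2D, where Ckb was higher, Mark3 fell by 0.42 (adjusted p = 1.94e-06), Eif5 by 0.51 (adjusted p = 0.000379) and Trmt61a by 0.4 (adjusted p = 0.00046), and the value for Eif5 was -0.18 (adjusted p = 0.0016) with the GC and length trend removed. The difference of effects, -1.32 for Ckb, was 0.26 for Mark3 (adjusted p = 0.00865) and 0.38 for Trmt61a (adjusted p = 0.016). In 2D and in the difference of effects Mark3, Eif5 and Trmt61a thus had the sign opposite to that of Ckb. The 2D value of Ckb was 0.06 with the GC and length trend removed. Bag5 lay at -0.07 to -0.02 in 2D and -0.02 to 0.08 in the difference of effects, with each library left out in turn. In 3D only Mark3 passed the test, with the sign of Ckb at a smaller size. Without single libraries, the 3D values of Trmt61a (-0.05 to 0.02) and Bag5 (-0.07 to 0.03) took either sign.

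At lower coordinates than Ckmt1 lie Ppip5k1, a kinase of inositol pyrophosphates, 2318 bases away, and Map1a, a microtubule-associated protein. At higher coordinates lie Catsper2, a sperm calcium channel subunit, 28894 bases away, and Pdia3, a protein disulfide isomerase. With shAnkrd35 against shGFP in 3D, Ppip5k1 rose by 0.22 (adjusted p = 0.0146) and Map1a fell by 0.47 (adjusted p = 0.000968), while Ckmt1 was higher by 1.99. In 2D, Ppip5k1 differed by -0.07 (adjusted p = 0.321) and Map1a fell by 1.32 (adjusted p = 8.21e-09), while Ckmt1 was higher by 2.04. Catsper2 fell in 2D (-0.4, adjusted p = 0.036) and Pdia3 in 3D (-0.11, adjusted p = 0.0463). These calls were lost under 9 alternatives for Catsper2 and 16 for Pdia3. With each library left out in turn, Catsper2 in 3D was 0.13 to 0.25 and Pdia3 in 2D was -0.02 to 0.02.

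Between growth types the neighbours of Ckmt1 rose with it to a smaller extent in shAnkrd35 cells. In 3D against 2D with shAnkrd35, Ppip5k1 rose by 0.46 (adjusted p = 5.84e-06), Map1a by 0.96 (adjusted p = 1.46e-07), Catsper2 by 0.85 (adjusted p = 0.000111) and Pdia3 by 0.21 (adjusted p = 0.000173), where Ckmt1 was higher by 2.51. The value of Pdia3 was 0.12 (adjusted p = 0.0238) with libraries centred on the median gene and 0.35 (adjusted p = 2.93e-06) after quantile normalization. With shGFP, where Ckmt1 was higher by 2.56, Pdia3 rose by 0.32 (adjusted p = 2.32e-06), or 0.53 (adjusted p = 1.7e-08) after quantile normalization. Ppip5k1 rose by 0.17 (adjusted p = 0.0235), a call that was lost with libraries centred on the median gene (adjusted p = 0.21), after quantile normalization (adjusted p = 0.21) and without replicate 3 of 3D shGFP (adjusted p = 0.0633), and whose value was 0.37 (adjusted p = 2.02e-06) with the GC and length trend removed. Map1a differed by 0.11 (adjusted p = 0.305) and Catsper2 by 0.26 (adjusted p = 0.139).

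The genes with the pattern most like each kinase were found by the root mean square difference of log2 values over the 16 libraries, after each gene was centred on its own mean, among genes averaging at least 5 CPM. For Ckb these were Gas6, a ligand of Axl-family receptors (0.164), Bmp4, a growth factor (0.182), Cnp, a phosphodiesterase known from myelin (0.201), Tns4, an adhesion adaptor (0.208), and Ptpn14, a tyrosine phosphatase (0.209), where the median gene was at 0.544 and Ckmt1 at 2.048. In all 5 the 3D shAnkrd35 group had the lowest mean, as for Ckb. Gas6 averaged 65.5 CPM in 3D shAnkrd35 against 113.0 in 3D shGFP, and 148.0 in 2D shAnkrd35 against 152.0 in 2D shGFP.

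For Ckmt1 the nearest patterns were those of Hnf4a, a nuclear receptor of endodermal epithelia (0.39), Ddc, the aromatic amino acid decarboxylase (0.406), Car8, a relative of the carbonic anhydrases (0.409), Lgals4, a galectin of the gut (0.469), and Tjp3, a tight junction protein (0.54). The median gene was at 1.652. Each had the same order of group means as Ckmt1. Ddc averaged 14.1 CPM in 3D shAnkrd35 against 5.62 in 3D shGFP, and 3.5 in 2D shAnkrd35 against 0.717 in 2D shGFP. Being chosen for likeness, these genes were not tested, and the 16 libraries share the 4 groups and their GC slopes.

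**Figure D5:**
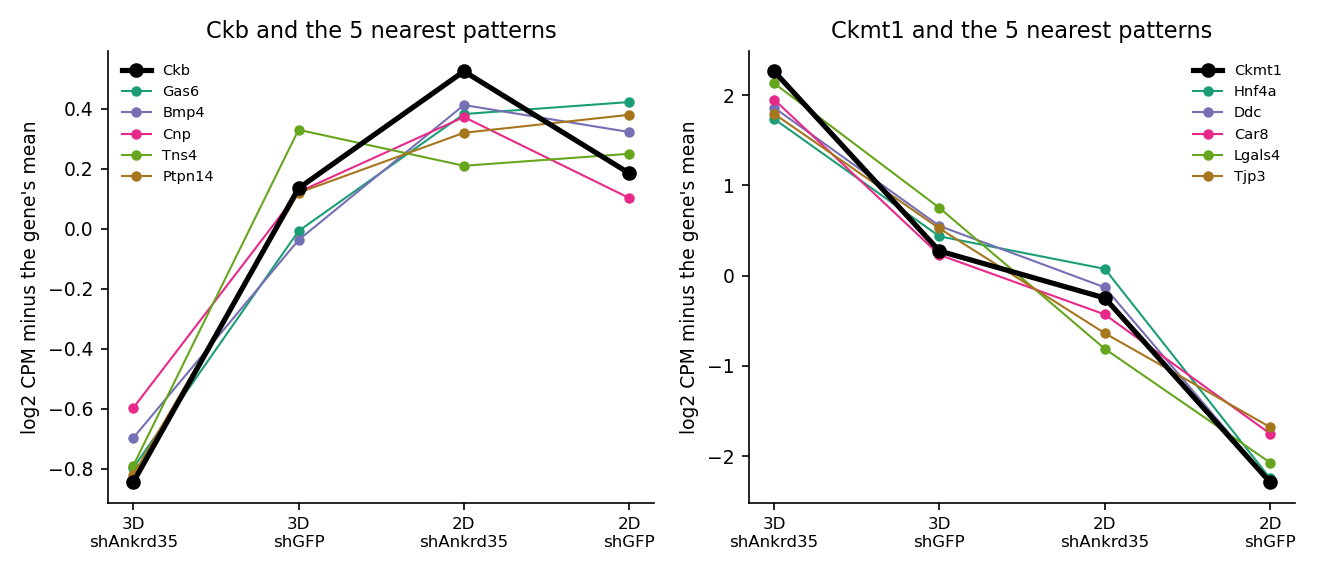
Mean log2 CPM in each group minus the mean of the 4 groups for Ckb (left) and Ckmt1 (right, black lines) and for the 5 genes nearest to each (coloured lines). The Ckb set is lowest in 3D shAnkrd35, and the Ckmt1 set descends from 3D shAnkrd35 to 2D shGFP.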

How the data were processed

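The authors deposited log2 expression values, 1 column for each of 16 libraries, and 0 columns belonged to other samples. The submitters' processing notes name mm10, STAR 2.5.1b, Trimmomatic 0.38 and edgeR, and per the labels' protocols RNA was selected with oligo(dT) beads and copied with random hexamers. Not given in the sources used here are the read counter, its annotation and strand setting, and how low genes were filtered. From the values, each is the log2 of CPM with a prior count averaging 2 reads, and in every library all values came out as whole reads within 0.01 once the prior was removed. CPM in the text is without the prior and log2 differences include it, so that they understate changes of low genes. The design had allowed for counts as well, but log2 values were found and limma was used.

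limma 3.58.1 in R 4.3.3 (statmod 1.5.0), with trend and robust fitting, was run on 12320 genes with at least 1 CPM (prior included) in at least 4 libraries, as a cell-means model of the 4 groups, with Benjamini-Hochberg adjustment over genes in each of 5 comparisons and a threshold of 0.05. The steps were tested on simulated counts of fixed dispersion without library trends on GC content or length, so those trends were not covered. GENCODE M21 (GRCm38) gave coordinates, length and GC content for 12218 of the symbols, and 407 symbols altered by software were restored. The kinases, lists and alternatives were chosen with earlier results of these data known. Genes named are the kinases, measured genes of creatine supply, up to 3 called members with the smallest p of each list and comparison (a few are not reported here), 5 look-alikes and 2 neighbours on each side of each kinase, and Ankrd35. Muscle, neuronal, macrophage, fibroblast, epithelial and alveolar markers were summed. Alternatives were other filters, scalings, pseudocounts, variance models and fits, a replicate block, removal of the GC and length trend, and leaving out each library.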

Additional observations from a re-analysis of the deposited data

Results flagged for a closer look

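Ckmt1 in replicate 2 of 2D shGFP, at 0.628 CPM, stood above the other libraries of its group, with 0.936 of the group's range in the gap to the next, above Dixon's limit for 4 libraries. It rests on 12 reads, where the others had 6 or 7. Gamt in replicate 1 of 2D shAnkrd35, at 34.1 CPM, stood below its group, with 0.881 of the range in the gap. Chance flags about 1 in 20 such groups, and 16 were tried.

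The hairpin effect differed between 3D and 2D, by limma's test of the difference with Benjamini-Hochberg adjustment over all genes, for these genes of the lists and neighbours, with 17.1% of all genes passing the same test upward and 18.6% downward. Positive differences, 3D minus 2D, were found for Slc7a1 (0.67), Slc3a2 (0.56), Atp2a3 (1.12), Atp2a2 (0.23), Prkag3 (0.99), Eif5 (0.39), Mark3 (0.26), Trmt61a (0.38), Map1a (0.85), Ppip5k1 (0.29) and Catsper2 (0.59). Negative differences were found for Gamt (-0.58), Oat (-0.44), Vdac2 (-0.23), Slc25a3, the phosphate carrier (-0.31), Nme4 (-0.7), Nme7 (-0.55), Dtymk, which phosphorylates thymidylate (-0.38), Atp1b1 (-0.29) and Prkab1 (-0.27). With the GC and length trend removed, those of Eif5 (0.14), Vdac2 (-0.05), Slc25a3 (-0.1), Dtymk (-0.12), Atp1b1 (-0.17) and Prkab1 (-0.08) no longer passed. The calls for Catsper2, Eif5 and Slc25a3 were also lost without several single libraries.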

How the results depend on the processing

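Removing each library's trend on GC content and length moved Ckb to 0.06 between hairpins in 2D, to 0.11 and -0.99 in 3D against 2D with shGFP and shAnkrd35, and to -1.1 for the difference of effects, and Ckmt1 to 2.84 in 3D against 2D with shAnkrd35. That removal shifted the median of all genes by 0.15 in 3D against 2D with shAnkrd35. The removal also changed the sign of some 3D against 2D values. With shAnkrd35, Slc25a4 (0.11, adjusted p = 0.0299) and Strada (-0.31, adjusted p = 0.0455) passed the test with the new sign. Those of Slc6a8 (0.03), Stk11 (0.03) and Vdac1 (0.01) with shAnkrd35 and Eif5 with shGFP (-0.07) no longer passed (adjusted p from 0.134 to 0.751). The hairpin value of Prkaa2 in 2D (0.03, adjusted p = 0.891) did not pass either. Centring on the median gene gave -1.47 for Ckb in 3D against 2D with shAnkrd35. Quantile normalization gave 2.17 for Ckmt1 in 3D against 2D with shGFP, and Slc25a4 there moved from -0.19 to 0.02 (adjusted p = 0.757). As log2(CPM + 1), Ckmt1 differed by 1.68 between hairpins in 3D and 1.01 in 2D, by 2.04 and 1.37 between growth types with shAnkrd35 and shGFP, and by 0.67 for the difference of effects. A mean of at least 5 CPM left Ckmt1 out. Beyond the construction of these alternatives the cause was not tested. Without each library in turn, Ckb stayed between 0.28 and 0.37 (2D hairpin), -0.99 and -0.96 (3D hairpin), and -1.35 and -1.26 (difference), and Ckmt1 between 1.96 and 2.27, 1.94 and 2.07, and -0.28 and 0.04. Counts of called list genes stayed within 1.5 times under every alternative. Some differences given above as not passing did pass under an alternative. Between hairpins these were Gamt in 3D (4 alternatives), Eif5 in 3D (1), and Slc6a8 and Ppip5k1 in 2D (1 each). In 3D against 2D with shGFP they were Gamt, Map1a and Catsper2 (1 each). Whether replicate numbers pair libraries was not settled. Deviations from group means correlated at -0.483 to 0.206 between same-numbered libraries (8 of 24 over 0.1). Between 2D shGFP and 3D shAnkrd35 these correlations were 0.181, 0.186, 0.119 and 0.177. A replicate block gave 0.34 and -0.98 for Ckb and 2.04 and 1.99 for Ckmt1, with 32 list genes called in 2D and 27 in 3D. Depth limits Ckmt1 in 2D shGFP, with 6 to 12 reads a library.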
